A study of Homo sapiens with 4 samples.

Results

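HNRNPC peaks that crowd into the same gene were the subject here: 1621 peak positions in 99 protein-coding genes with 10 or more peaks each. The genes were chosen by the measured number of peaks on their own strand, with each position counted once and placed by its centre, so peak number is a description and was not tested. They were 99 of 19396 protein-coding genes, or 0.51%, and held 17.8% of the 9107 positions in the list (95% Wilson interval 17 to 18.6%). At the edge of the rule, 13 genes had 10 peaks and were kept, and 23 genes had 9 peaks and were left out. The comparison genes were the 2079 protein-coding genes with 1 peak, which held 2060 peaks because some overlapping genes shared one, and no peak belonged to both classes.

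The cells were MDA-MB-231, a long-established breast cancer line of human origin, irradiated at 254 nm with 400 mJ per square centimetre, so that protein was cross-linked to the RNA it touched. RNA bound to HNRNPC was recovered with an anti-HNRNPC antibody from 2 samples, by irCLIP according to the labels, although the list itself is named for HITS-CLIP. Both samples were pooled in 1 peak list, so replicates could not be set against each other, and every interval covers counting error only. A matching list for PABPC4, a poly(A)-binding protein, came from 2 further samples and was used here only for overlap. No measure of RNA abundance was used, so more binding per RNA molecule and more RNA molecules of a gene cannot be told apart.

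HNRNPC is an abundant nuclear protein that assembles into tetramers on nascent transcripts and contacts runs of uridines. Alu elements, the most common repeats in human introns, carry such a run when they lie antisense to the gene, since their A-rich tail is then transcribed as U. HNRNPC is known for covering these stretches and thereby keeping antisense Alu sequence from being spliced into mRNA as exons.

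The sequences below show 3 tall peaks of these genes on the RNA strand, with T for U, from the hg38 reference. Capitals mark the hexamer GTGTCA. RUNX1 and TRIO were among the genes with the most peaks, and their tallest peaks are shown. Both ended near the hexamer. EXT1 and PRKCA had more peaks than TRIO but are not shown, and the tallest PRKCA peak, of 200 tags, lay near an antisense Alu. None of the 3 peaks shown did, and none had TTTTT at or before its 5′ end. They do not represent the 32.6% of peaks that lay near an antisense Alu. The RUNX1 peak lay at chr21:34809425-34809551 on the minus strand, in intron 25, and was 88 tags high. The TRIO peak lay at chr5:14301407-14301517 on the plus strand, in intron 10, and was 85 tags high. The last is the tallest peak of ZMIZ1, a gene in which no peak lay near an antisense Alu (70 tags, intron 1, chr10:79087399-79087553, plus strand), chosen after its values were seen.
RUNX1: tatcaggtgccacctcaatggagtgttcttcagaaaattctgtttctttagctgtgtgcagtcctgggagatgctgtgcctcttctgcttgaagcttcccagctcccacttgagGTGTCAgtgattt
TRIO: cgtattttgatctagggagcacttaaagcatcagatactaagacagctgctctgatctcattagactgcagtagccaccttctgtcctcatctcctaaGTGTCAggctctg
ZMIZ1: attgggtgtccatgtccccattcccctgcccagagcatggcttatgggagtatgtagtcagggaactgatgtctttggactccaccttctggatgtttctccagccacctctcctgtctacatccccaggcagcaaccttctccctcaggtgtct

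Peak number was unevenly spread among the 99 genes. The median was 13 peaks per gene (quartiles 11 and 17), 43 genes had 15 or more, 20 had 20 or more, and 7 had 30 or more. EXT1, which encodes a polymerase of heparan sulfate chains, came first with 76 peaks. RUNX1, a transcription factor of blood cell development, had 64 listed peaks, and PRKCA, the alpha form of protein kinase C, had 59. TRIO, a large guanine nucleotide exchange factor, had 38. The receptor tyrosine phosphatase gene PTPRM had 37, the kinase anchoring gene PALM2AKAP2 had 33, and HMGA2, an architectural chromatin protein, had 31. BCAR3, an adaptor of integrin signalling, and MPRIP, which binds myosin phosphatase, had 27 each. SLC35F3, of the solute carrier family, and CMIP had 26 each, and NAV2 had 25. EGFR, the epidermal growth factor receptor, stood just behind them with 22. On hg38, PRKCA is annotated at chr17:66302613-66810743 on the plus strand, TRIO at chr5:14143342-14532128 on the plus strand, RUNX1 at chr21:34787801-36004667 on the minus strand and HMGA2 at chr12:65824460-65966291 on the plus strand.

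Part of the RUNX1 count came from an unusual set of gene IDs. Each entry of the list names the gene in which the peak was tested, and 13 of those IDs, on chromosomes 16 and 21, had entries spread over 6.87 to 34.8 Mb, further than the longest annotated gene (2473539 bases). In 5 of the densely bound genes there were 76 peaks listed only under such IDs. Those peaks were 5 to 12 tags high (median 6 tags) and the height expected there by chance was given as a median of 0.01 tags, while the other 1545 peaks had a median height of 15 tags and a median expected height of 0.55 tags. In RUNX1, 38 of the 64 peaks were of this kind and 26 remained without them, 6 of those near an antisense Alu. WDR4, a partner of the tRNA methyltransferase METTL1, had 16 such peaks of 17, and the remaining peak was 184 tags high. XPO6, a nuclear export receptor for actin, kept 5 of 11 peaks, PKNOX1, a homeobox gene, kept 3 of 11, and the kinase gene DYRK1A kept 2 of 10. Without these peaks 95 genes were densely bound, with the 4 genes after RUNX1 lost.

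The other uncertain counts came from overlapping genes on the same strand, in which a peak was counted for both. CHFR and GOLGA3 shared 14 peaks, SNX5 and OVOL2 shared 16, and ZNF83 and ENSG00000269825 shared 10. With peaks that lie in exactly 1 gene, 93 genes were densely bound and those 6 were lost.

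**Figure D1:**
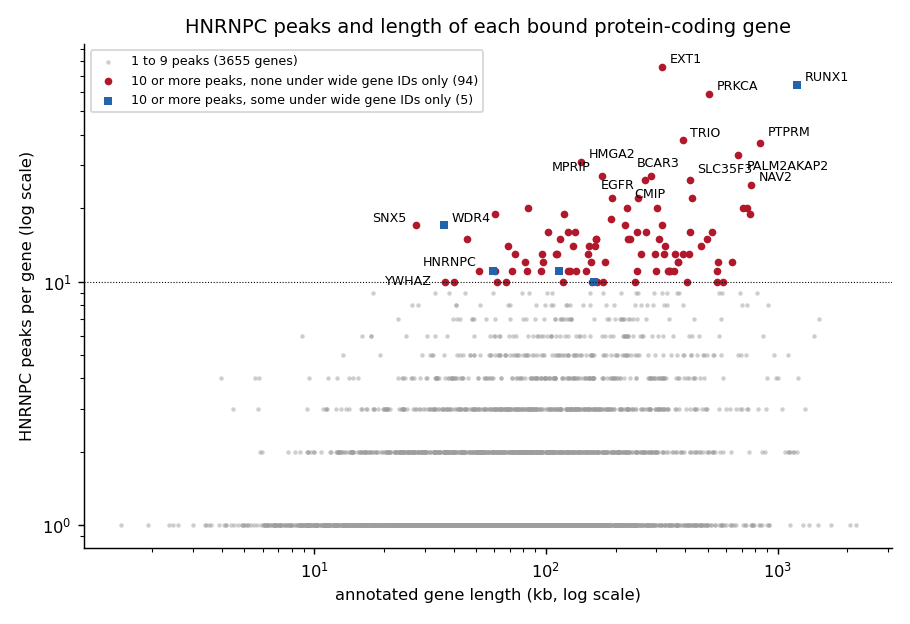
Each point is a protein-coding gene with at least 1 HNRNPC peak, placed by annotated length in kb and number of peaks, both on log scales. Grey points have 1 to 9 peaks, red points have 10 or more, and the 5 blue squares have some peaks listed only under gene IDs spread over megabases; the dotted line is at 10 peaks, and red points lie mostly to the right of 100 kb.

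The densely bound genes were long. Their median annotated length was 220 kb (quartiles 117 and 366 kb; 95% interval of the median 161 to 270 kb), against 52.2 kb for genes with 1 peak (quartiles 27.1 and 110 kb; interval 49.9 to 54.7 kb) and 26.9 kb for all protein-coding genes. Genes longer than 100 kb made up 79 of 99 densely bound genes, or 79.8%, and 27.7% of genes with 1 peak. Genes longer than 300 kb made up 36.4% and 5.15%. The median number of introns was 25 against 13, and the median longest intron 54.5 kb against 14.1 kb. The plot of peaks against length shows the shift to the right of 100 kb.

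Most long genes were nevertheless not densely bound. Of the 803 protein-coding genes of 300 kb or more, 300 had a peak and 36 were densely bound (4.48%). The share was 1.59% of genes from 100 to 300 kb and 0.340% of genes from 30 to 100 kb, and 1 gene under 30 kb was densely bound. That gene was SNX5, a sorting nexin of endosomes, with 17 peaks in 27.4 kb, although only 9 of those peaks were listed under its own ID and 16 lay in OVOL2 as well. WDR4 at 36.5 kb and YWHAZ, which encodes the zeta 14-3-3 protein, at 36.9 kb were the next shortest. The longest were RUNX1 at 1217 kb as annotated, PTPRM at 840 kb and NAV2 at 771 kb.

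Peaks per length varied too. The median was 7.73 peaks per 100 kb (quartiles 4.08 and 12.6) in densely bound genes and 1.91 in genes with 1 peak, a quantity that follows in part from the rule. The highest values were 62.1 peaks per 100 kb in SNX5, 46.6 in WDR4, 32.8 in SH2B3, an adaptor that restrains cytokine receptor signalling, 31.5 in GOLGA3, a Golgi protein, and 27.1 in YWHAZ. Of these, 3 rest on the uncertain counts given above. An overlapping gene shared 16 of 17 peaks in SNX5 and 14 of 19 in GOLGA3. In WDR4, 16 of 17 peaks were listed only under IDs spread over megabases. Among the genes with the most peaks, EXT1 had 23.9 and HMGA2 21.9, while NAV2 had 3.24. The lowest of the 76 listed EXT1 peaks was 17 tags high and the lowest of the 15 listed SH2B3 peaks 18 tags, beside a median of 11 tags in the whole list. Peaks were tested against the height expected in their gene. Lower peaks in these genes may therefore have gone unlisted, and nothing is read from these minima.

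Peaks in densely bound genes were taller and wider than those in genes with 1 peak, which is given as a description because height decided whether a peak was listed. Their median height was 14 tags (quartiles 11 and 22; range 5 to 304) against 9 tags (quartiles 7 and 13), and their median width was 120 nt against 91 nt. The height expected by chance in the gene, against which each peak was tested, had a median of 0.53 tags against 0.1 tags. The tallest peak of the set, 304 tags, lay in SLC35F3, followed among the named genes by PALM2AKAP2 at 244 tags and PRKCA at 200 tags. The authors' p-value was at most 0.001 for 1192 of 1621 peaks, or 73.5% (95% Wilson interval 71.3 to 75.6%), beside 71.4% of the whole list.

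Neighbouring peaks lay mostly within a few kb of each other, a spacing that follows in part from the rule, since genes were kept for their many peaks. Over 1562 pairs of neighbours the median gap between peak centres was 3.52 kb (quartiles 0.879 and 11 kb). That value weighs towards the genes with the most peaks, and the median over genes of each gene's median gap was 5.12 kb. Gaps under 1 kb made up 27.1% (24.9 to 29.3%), gaps under 10 kb 73.3% and gaps under 50 kb 95.1%. In 85 of the 99 genes at least 1 pair lay within 1 kb. From first to last peak, the peaks spanned a median of 73.2% of the gene. The median gap was 1.34 kb in EXT1 and 9.88 kb in NAV2.

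Close peaks formed runs in which no gap exceeded 1 kb. The longest run had 14 peaks in 4.99 kb and lay in the overlap of CHFR, a ubiquitin ligase of the mitotic checkpoint, and GOLGA3. WDR4 had a run of 9 peaks in 3.85 kb, made largely of the peaks listed under IDs spread over megabases. PIP5K1A, a lipid kinase that makes phosphatidylinositol bisphosphate, had 8 in 4.31 kb, and PFKP, the platelet form of phosphofructokinase, had 7 in 3.27 kb. EXT1 had 6 in 1.75 kb and PTPRM 6 in 1.64 kb. At the other end, 14 genes, among them SMAD3, MECOM and ZMIZ1, had no pair of peaks within 1 kb.

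**Figure D2:**
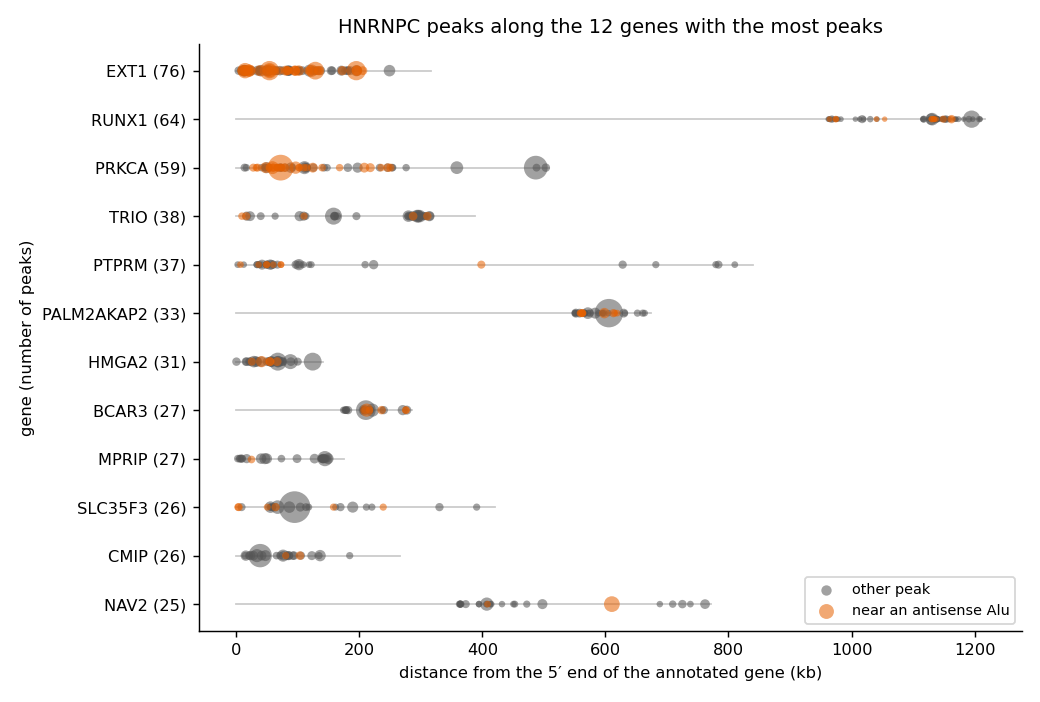
HNRNPC peaks along the 12 genes with the most peaks, by distance in kb from the 5′ end of the annotated gene (grey line). The area of a point grows with the height of the peak in tags, and orange points lie near an antisense Alu; EXT1 and PRKCA carry many orange points, and RUNX1 and PALM2AKAP2 carry their points only in the last part of the annotated gene.

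Peaks lay towards the 5′ end of the gene more often than elsewhere. With each gene cut into 5 equal stretches, the stretch at the 5′ end held 31.2% of peaks (29.0 to 33.5%) and those after it 21.6, 15.1, 14.2 and 17.9%, counting a shared peak in each of its genes. In genes with 1 peak these shares were 25.3, 21.0, 17.9, 18.5 and 17.2%. The shares of densely bound genes weigh towards the genes with the most peaks, and their intervals treat the peaks of a gene as independent. With each gene counted once, its median peak lay at a median of 31.3% of the gene from the 5′ end (quartiles 18.7 and 46.7%). The map of the 12 genes shows how far single genes departed from this. The median peak of PTPRM lay at 7.14% of the gene from its 5′ end and that of PRKCA at 20.1%, while that of RUNX1 lay at 93.2%, that of PALM2AKAP2 at 85.3% and that of OVOL2, an epithelial zinc finger factor, at 95.9%. All 16 OVOL2 peaks were also counted in SNX5, whose median peak lay at 28.7% of the gene. The RUNX1 peaks lay between 962 and 1209 kb from the 5′ end of a gene annotated over 1217 kb.

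**Figure D3:**
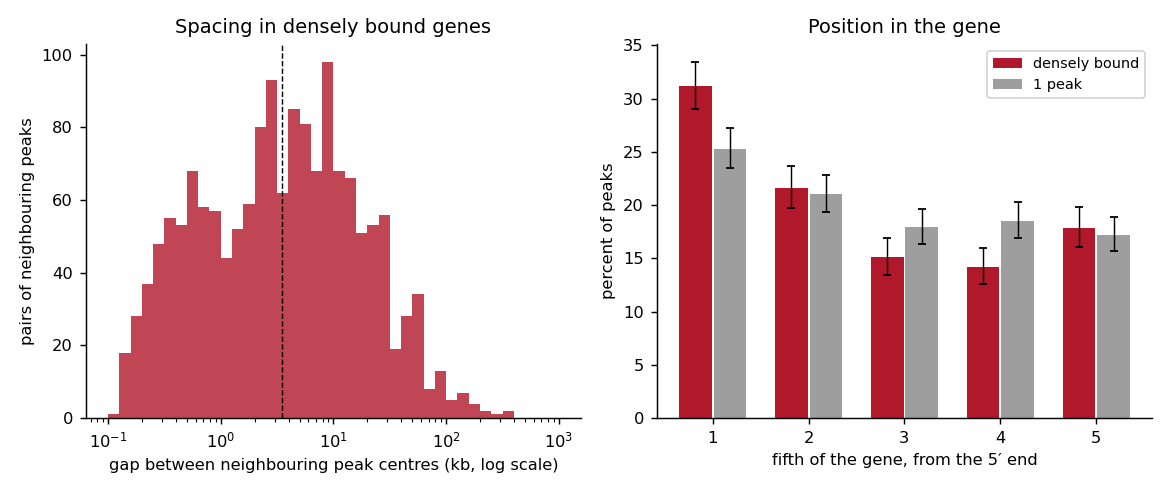
Left, gaps between neighbouring peak centres in the 99 densely bound genes, in kb on a log scale, with the median of 3.52 kb as a dashed line. Right, percent of peaks in each of 5 equal stretches of the gene from the 5′ end, with 95% Wilson intervals, for densely bound genes (red) and genes with 1 peak (grey); the stretch at the 5′ end holds 31.2% and 25.3%.

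Nearly all of these peaks lay in introns, a share close to that of the genes' own sequence. Peak centres lay in introns for 1540 of 1621 peaks, 95% (93.8 to 96.0%), against 79.7% of peaks in genes with 1 peak (77.9 to 81.4%), and in 59 of the 99 genes every peak was intronic. Of the evenly placed windows, 1 every 500 nt, 95.3% lay in introns in densely bound genes and 91.6% in genes with 1 peak. Those window shares weigh towards long genes. With each gene weighted alike they were 92.2% and 81.5%, so on that basis the peak share was near the window share in both classes. Because peaks of a gene share their source, the test used 1 peak per gene, the middle one by position. On that basis the chosen peak was intronic in 98.0% of 99 densely bound genes, against 79.7% of the 2060 peaks of genes with 1 peak. The difference was 18.3 percentage points (95% interval 13 to 20.6, two-sided Fisher's exact test, adjusted p = 9.77e-07 over 6 features). The middle of 10 or more peaks is never the first or last of its gene, while a single peak is both. The difference was 11.1 points with the 5′-most peak of each gene and 13.3 points with the tallest (two-sided Fisher's exact test, adjusted p = 0.0177 and 0.00392). Densely bound genes also had more intron sequence, with a median of 94.6% of the gene length in introns against 87.6%, and the part this plays in the difference was not tested. The intron share was lowest in SPG7, a mitochondrial protease gene, with 2 of 10 peaks, followed by AGO2 with 9 of 15, PLEC with 6 of 10, GOLGA3 with 13 of 19, MACF1 with 7 of 10 and MPRIP with 20 of 27.

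The peaks were spread over few introns. A median of 4 introns per gene carried a peak (range 1 to 10), which was 17.8% of the introns of the gene. The intron with the most peaks held a median of 53.8% of the gene's peaks while making up a median of 23.9% of its intron length. That intron was picked for its peaks, so its share was bound to be high, and in 60 of 99 genes it was also the longest intron. The longest intron, picked by length alone, held 653 of 1574 intronic peaks, 41.5% (39.1 to 43.9%), and 28.7% of intron length. Here a shared peak was counted in each of its genes. The first intron held 273 of the same 1574, 17.3% (15.6 to 19.3%), and 11.4% of intron length.

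Single genes ranged from 1 bound intron to 10. All 16 OVOL2 peaks lay in intron 8, within 9.7 kb, and all were also counted in SNX5, where 2 introns were bound. SLC35F3 had 24 of 26 peaks in intron 2, an intron of 309 kb that was 74.1% of its intron length. DIP2C had 12 of 13 peaks in intron 1, of 203 kb. PTPRM had 29 of 37 peaks in intron 1, which was 22.5% of its intron length, and PRKCA had 39 of 59 in intron 3, which was 31.4%. TRIO stood out for intron 40, which held 14 of 38 peaks in 5.24% of its intron length, and PALM2AKAP2 for intron 13, with 18 of 33 peaks in 6.30%. EXT1 had 43 of 76 peaks in intron 1 of 92.8 kb, and all 76 peaks lay in 2 introns. Peaks reached 10 introns each in NAV2, a microtubule-binding protein, and EHMT1, a histone H3 lysine 9 methyltransferase. They reached 8 introns in 9 genes, among them RUNX1, MPRIP, SMYD3 and SEPTIN9, a filament-forming GTPase.

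Within the densely bound genes, longer introns were bound more often but not at a steadily rising density. These genes were kept for their many peaks, so the shares follow in part from the rule. Of their introns under 1 kb, 1.61% carried a peak. This share was 7.39% from 1 to 5 kb, 28.9% from 5 to 20 kb, 58.2% from 20 to 100 kb and 74.3% at 100 kb or more. Peaks per 100 kb of intron were 4.13, 4.67, 6.55, 6.94 and 4.91 in the same order.

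**Figure D4:**
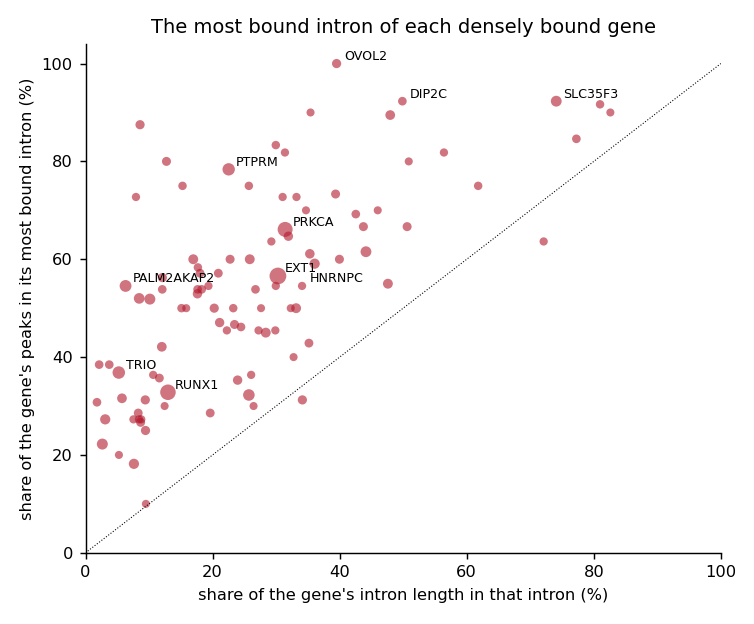
For each of the 99 densely bound genes, the share of its peaks in its most bound intron against the share of the gene's intron length in that intron, both in percent; the area of a point grows with the number of peaks and the dotted line marks equal shares. In 97 genes the point lies above the line, with the intron chosen for its number of peaks.

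Antisense Alu sequence lay near many of these peaks, sense Alu sequence near few. A match to an Alu consensus within 100 nt lay antisense to the gene for 528 of 1621 peaks, 32.6% (30.3 to 34.9%), and in sense for 34 peaks, 2.10% (1.5 to 2.92%). Evenly placed windows of the same genes, 1 every 500 nt, gave 11.9% antisense and 9.06% sense, so peaks held antisense Alu 2.73 times as often as the windows and sense Alu 0.232 times as often. In genes with 1 peak the antisense share was 39.8% (37.7 to 41.9%), against 13.4% of windows, a ratio of 2.96. On 1 middle peak per gene the antisense shares were 35.4% and 39.8%, a difference of -4.45 percentage points (95% interval -13.4 to 5.57; two-sided Fisher's exact test, adjusted p = 0.602), so no difference between the classes was detected and one of up to 13.4 points was not excluded. For Alu in either orientation the difference was -1.72 points (-11 to 8.35; the same exact test, adjusted p = 0.755).

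The share differed widely from gene to gene. In 81 of the 99 genes it was above that of the gene's own windows, in 21 genes it was over 50%, and in 5 genes no peak lay near an antisense Alu. All 12 peaks of ATXN2, an RNA-binding protein of the cytoplasm, were near one, with heights from 10 to 48 tags, beside 31.0% of its windows. All 13 peaks of SLC4A7, a sodium bicarbonate cotransporter, were too, at 10 to 24 tags and beside 22.3% of windows. HELLS, a helicase that helps to maintain DNA methylation, had 13 of 14 and YWHAZ 9 of 10. HNRNPC itself was among the densely bound genes, with 11 peaks of 13 to 22 tags, 10 of them near an antisense Alu, beside 33.9% of its windows. Of these 11 peaks, 6 lay in intron 4.

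Other genes had few such peaks or none. ZMIZ1, a coactivator related to the PIAS proteins, had 0 of 16 peaks near an antisense Alu, DIP2C 0 of 13, ZFYVE28 0 of 11, and NPAS2, a circadian transcription factor, 0 of 10. SORCS2, a sorting receptor, also had none. MPRIP had 1 of 27, CMIP 2 of 26, NAV2 2 of 25 and SEPTIN9 1 of 17. In these genes the share of windows near an antisense Alu ran from 3.09% in SORCS2 to 14.1% in SEPTIN9. EXT1 and PRKCA lay between, with 35 of 76 and 28 of 59 peaks, beside 12.8% and 13.4% of their windows.

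**Figure D5:**
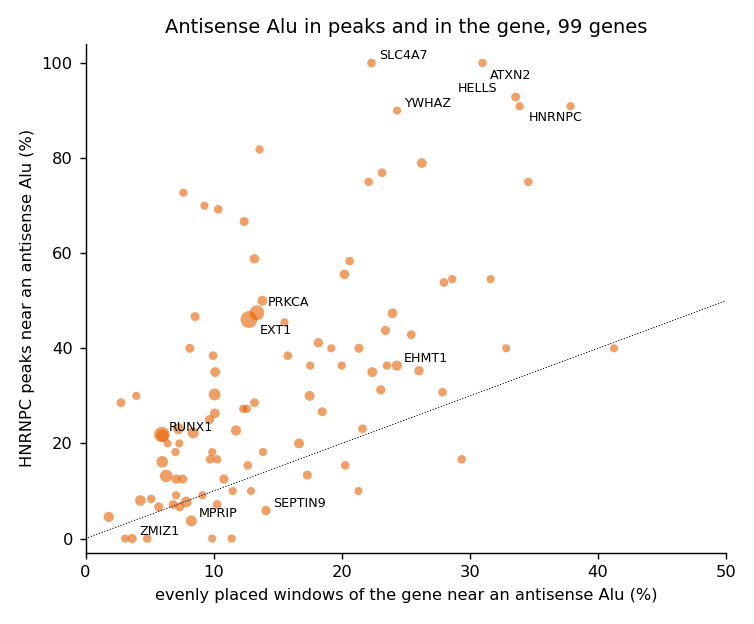
For each of the 99 densely bound genes, the percent of its HNRNPC peaks within 100 nt of an antisense Alu against the same percent for windows placed every 500 nt along the gene; the area of a point grows with the number of peaks and the dotted line marks equal percents. Points lie above the line in 81 genes, and ATXN2 and SLC4A7 are at 100%.

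Runs of U accompanied the antisense Alu peaks. TTTTT, searched on the RNA strand in the 50 nt before the peak and its first 10 nt, was found for 32.1% of peaks (29.9 to 34.4%), beside 16.1% of windows. It was found for 69.7% of peaks near an antisense Alu (65.6 to 73.5%) and for 14.0% of peaks with no Alu (12 to 16.2%). In genes with 1 peak these shares were 70.7% and 13.1%. On 1 peak per gene, 31.3% of densely bound genes and 36.1% of genes with 1 peak had the run, a difference of -4.75 points (-13.3 to 5.15; two-sided Fisher's exact test, adjusted p = 0.602). The RUNX1, TRIO and ZMIZ1 sequences above hold no such run in the bases shown.

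Among the 4 sequence features tested, the classes differed in the hexamer GTGTCA. Searched on the RNA strand in the last 20 nt of the peak and the 10 nt after it, as in the RUNX1 and TRIO sequences, it was found for 26.7% of peaks in densely bound genes (24.6 to 28.9%) and 45.2% in genes with 1 peak (43.1 to 47.4%), while windows held it in 0.617% and 0.571%. On the middle peak of each gene the shares were 26.3% and 45.2%, a difference of -19.0 points (95% interval -26.9 to -9.30; two-sided Fisher's exact test, adjusted p = 0.00052). With the tallest peak of each gene instead, the difference turned to 8.29 points by the same exact test (adjusted p = 0.363). The hexamer was more common in taller peaks of both classes. In densely bound genes it ended 15.5% of peaks under 10 tags, 20.2% from 10 to 14, 26.6% from 15 to 29 and 52.0% at 30 tags or more, and in genes with 1 peak the shares were 35.5, 51.0, 60.8 and 71.2%. Within antisense Alu peaks it was found for 11.6% against 26.6%, and within peaks with no Alu for 34.3% against 57.5%. The origin of the hexamer was not tested. ZMIZ1 had it in 13 of 16 peaks and SEPTIN9 in 12 of 17, while HNRNPC, HELLS and SLC4A7 had it in none.

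PABPC4 peaks were listed in all 99 densely bound genes, with 1 to 78 peaks per gene (median 21), beside 96.0% of genes with 1 HNRNPC peak and 60.5% of all protein-coding genes. At the level of positions few listed peaks overlapped, in these genes and in the whole list alike. A PABPC4 peak overlapped 18 of the 1621 HNRNPC peaks, 1.11% (0.704 to 1.75%), beside 86 of all 9107 positions (0.944%). On 1 peak per gene the shares were 1.01% in densely bound genes and 0.825% in genes with 1 peak (two-sided Fisher's exact test, adjusted p = 0.686). No overlap expected by chance was computed.

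By function, the densely bound genes were read against lists written as symbol patterns, beside the 0.51% of all protein-coding genes that were densely bound. No list was tested. Actin and spectrin cytoskeleton genes had 5 of 68 (7.35%), among them the actin cross-linker ACTN4 with 20 peaks and the giant linker proteins DST with 15, MACF1 with 10 and PLEC with 10. Cell adhesion genes had 6 of 139 (4.32%), the receptor phosphatases PTPRM with 37, PTPRG with 20 and PTPRJ with 18, the collagen gene COL13A1 with 14, alpha-catenin CTNNA1 with 13 and integrin beta subunit ITGB1 with 10. These are lists of long genes, with median lengths of 105 and 122 kb against 26.9 kb for all, and the part of length was not tested.

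Among RNA-processing genes the hnRNP list held densely bound members. Of its 35 genes, HNRNPC and PCBP3, each with 11 peaks, were densely bound (5.71%). At least 1 peak lay in 17 of the 35 (48.6%), beside 19.4% of all protein-coding genes. None of 26 SR and SR-related factors, 61 core spliceosome components, 54 RNA helicases or 20 factors of 3′ end processing was densely bound, and the most peaks in any of them was 6, 8, 4 and 7. Lists this short leave little room for a share of 0.51% to show, so nothing is read from these counts of 0. Of 57 histone methylation enzymes, EHMT1 with 22 peaks and NSD2 with 13 were densely bound (3.51%), and the symbol pattern leaves out the methyltransferase SMYD3 with 19. None of 26 histone acetylation enzymes, 46 chromatin remodellers or 55 DNA repair and checkpoint genes was densely bound, again in short lists whose patterns leave out HELLS with 14 peaks and the spindle checkpoint gene MAD1L1 with 16. Nor was any of 57 genes of the mitogen-activated kinase cascade, 30 of the PI3K and mTOR pathway, or 365 ubiquitin ligases and proteases, where the symbol patterns leave out the ligases SMURF2 with 19 peaks, CHFR with 16 and NEDD4L with 11.

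The remaining lists gave 1 or 2 genes each, or none. Nuclear transport gave XPO6 of 55, membrane traffic SNX5 of 255, zinc finger genes named ZNF gave ZNF83 of 509, and solute carriers gave SLC35F3 and SLC4A7 of 374. The 2 lists of short genes held no densely bound gene, although 1 of them had a peak more often than all genes. Of 98 cytosolic ribosomal protein genes, with a median length of 6.12 kb, 28 had a peak and the most in any was 4. That was 28.6%, beside 19.4% of all protein-coding genes with a peak. None of 93 histone genes had a peak. Outside the lists were the signalling genes EGFR with 22 peaks, SMAD3 with 14 and the focal adhesion kinase gene PTK2 with 11, and AGO2, the argonaute effector of microRNA silencing, with 15, which were picked out after their counts were seen.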

How the data were processed

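HNRNPC irCLIP was made in MDA-MB-231 cells from 2 samples. Per the study's methods, reads were collapsed by molecular identifier, trimmed with cutadapt after UMI-tools, aligned to hg38 with BWA 0.7.17 and peaks were called with a valley-seeking method of the CLIP Tool Kit. Boundaries were then combined across experiments and joined with a published iCLIP set; whether the deposited list includes that step was not settled. The processing of the PABPC4 list was not given in the sources used here. The signal the authors deposited for each peak is its height in pooled unique tags, not scaled to depth. Library depth is unknown here.

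The list held 10388 entries at 9107 positions, each counted once. Genes were those of GENCODE release 44, without readthrough genes; introns were gaps between merged exons. Alu matches were found by BLAST 2.17.0 (E-value at most 1e-05) against a consensus of reference copies aligned with MAFFT 7.526, with 100 nt added per side. Windows were 101 nt, treated alike. Placement and Alu calls were tested on simulated data. The only tests were two-sided Fisher's exact tests (scipy 1.17.1) on 1 peak per gene, the middle one unless stated, adjusted by Benjamini-Hochberg over 6 features. Shares have 95% Wilson intervals, medians order-statistic intervals.

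Named were the genes with the most peaks, the most peaks per length, the extremes of length, intron spread and antisense Alu share, the tallest peak, HNRNPC and members of the lists; others were added after seeing values. The members, lists and tests were chosen with earlier results of these data known. Alternatives covered the peak and p-value limits, height, gene sets, intron models, Alu settings and choice of peak. Some items, among them 2 of the lists, are not reported here.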

Additional observations from a re-analysis of the deposited data

How the results depend on the processing

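Of 105 alternative values, 79 kept their direction, their side of the threshold or their size, 20 moved and 6 turned. The number of densely bound genes was 150 with 8 or more peaks and 43 with 15 or more, 54 with an authors' p-value of at most 0.001 and 63 with peaks at or above the median height, and their peaks numbered 980, 856 and 1042 in the last 3. The median length of comparison genes was 57.2 kb with the p-value limit, 57.5 kb with taller peaks and 67.4 kb for genes with 1 to 9 peaks. The median gap was 2.76 kb with 15 or more peaks, 4.13 kb with the p-value limit and 2.37 kb within introns. The intron share was 96.3% with the p-value limit. The antisense Alu share was 28.7% with 15 or more peaks, 28.5% with the p-value limit, 29.9% with taller peaks, 27.8% with no added bases, 29.7% with 50 nt and 39.6% without GTGTCA peaks. Differences on 1 peak per gene turned to 2.22 points for Alu in either orientation, 1.93 for TTTTT and -0.159 for PABPC4 overlap with 8 or more peaks, to 5.31 for TTTTT with the p-value limit, and to 8.29 for GTGTCA and -0.825 for PABPC4 overlap with the tallest peak; the cause was not tested. Leaving out peaks under gene IDs spread over megabases, chosen after seeing the data, changed no direction or call. No paired analysis was possible because both samples were pooled in 1 list, and for the same reason no replicate could be left out.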
